A study of Danio rerio with 2 samples.

Results

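The genes hlfa (ENSDARG00000074752), MLLT3 (ENSDARG00000006754) and cd34 (ENSDARG00000095268) were followed in single blood cells of the zebrafish larva. They were 3 of the 19955 gene rows that the 2 count tables held between them. They were taken by their identifiers, as genes known for their link to blood stem cells. MLLT3 carries the symbol of its human counterpart in the name table used. The cells came from wild-type larvae at 5 days post fertilization, with a sort day of 6, and no treatment is named in the labels. They were sorted as hematopoietic stem and progenitor cells from dissociated caudal hematopoietic tissue, the niche in the tail where young blood stem cells settle, and CEL-seq2 counted the 3′ ends of their transcripts on 2 plates of 384 wells, called plates 20 and 21. Each well was double, single or undefined in the plate layouts, and the markers behind double and single are not stated in the sources used here. The layout of plate 21 had no well numbers and was read along rows, so each value of plate 21 by sort class rests on that reading.

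HLF is a transcription factor of the PAR bZIP family, which also holds circadian clock output factors, and in human and mouse it marks and maintains blood stem cells. MLLT3, also known as AF9, reads acylated histones through its YEATS domain and belongs to complexes that drive transcript elongation and methylate histone H3. In human cells it takes part in stem cell maintenance and in the early erythroid and megakaryocytic programme. CD34 is a cell surface sialomucin used to isolate human blood stem and progenitor cells, and endothelial cells carry it too.

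A well counted as a cell from 500 transcripts up, which gave 300 cells on plate 20 and 275 on plate 21, with a median depth of 8267 transcripts over both. Cells were divided by the share of their transcripts that came from 12 globin genes, a measure of red cell maturation that none of the followed genes enters. Low-globin cells, under 1%, numbered 140 on plate 20 and 129 on plate 21. Middle cells, 1% to 5%, numbered 79 and 69, and high-globin cells, over 5%, numbered 81 and 77. The low-globin cells were mixed. A list of neutrophil markers, of whose 19 names 13 were matched and all 13 detected, summed to 10708 CPM (the usual counts-per-total scaling of summed cells, with globin left out of the total) in low-globin and 487.5 in high-globin cells of plate 20, and to 10669 and 476.9 on plate 21. The progenitor factor MYB was seen in 60.0% and 56.6% of low-globin cells, in 74.7% and 79.7% of middle and in 58.0% and 76.6% of high-globin cells. This share, which depends on depth, did not set the low-globin cells apart. By level MYB was at 400.0, 371.6 and 231.7 CPM from low to high on plate 20. On plate 21 it was at 364.9, 455.5 and 268.6, so high-globin cells had the lowest level on both plates. In all, 15 wells with over 5% of transcripts from muscle or epidermis genes were kept. Among them was a middle-globin well of plate 20 with 249815 transcripts, of the 934585 in that range of the plate. Each test was repeated without that well and without all 15.

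All 3 genes were sparse. In the 575 cells hlfa had 372 transcripts in 212 cells, MLLT3 106 transcripts in 69 cells and cd34 116 transcripts in 51 cells. The highest count in 1 cell was 9 for hlfa, 9 for MLLT3 and 10 for cd34. Most positive cells held a single transcript: 126 cells had exactly 1 of hlfa, 49 of MLLT3 and 27 of cd34. Transcripts of cd34 were the most clumped of these, with a variance over cells of 3.94 times the mean on plate 20 and 3.85 times on plate 21. The ratio was 1.4997 and 2.34 for hlfa and 1.55 and 3.01 for MLLT3. A second zebrafish gene named HLF (ENSDARG00000061011) had 3 transcripts on plate 20 and 1 each in low- and middle-globin cells of plate 21, too few to describe.

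The 3 genes parted along the globin axis. MLLT3 rose with globin, cd34 fell, and hlfa was present throughout with no call between ranges. Of the MLLT3 transcripts 74.5% lay in high-globin cells, which made up 27.5% of all cells. Of the cd34 transcripts 86.2% lay in low-globin cells, 46.8% of all cells. The transcripts of hlfa were divided as 37.9% in low, 27.7% in middle and 34.4% in high-globin cells. Values below are CPM of summed cells, with 95% Poisson intervals that cover counting error only.

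**Figure D1:**
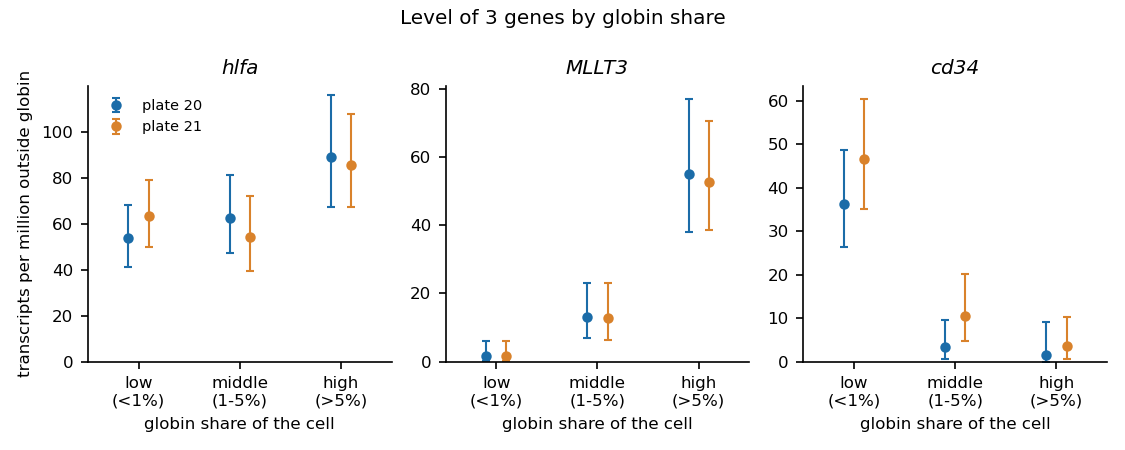
Level of hlfa, MLLT3 and cd34 (CPM outside globin, summed cells) in low-, middle- and high-globin cells of plate 20 (blue) and plate 21 (orange), with 95% Poisson intervals as bars. MLLT3 climbs from under 2 to over 50 on both plates, cd34 drops from 36.3 and 46.5 to under 4, and hlfa stays between 53.5 and 89.1.

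The chromatin reader gene MLLT3 was nearly absent from low-globin cells, with 2 transcripts on each plate. Its level was 1.65 CPM (0.20 to 5.95) in low, 13.2 (6.81 to 23.0) in middle and 55.1 (38.1 to 77.0) in high-globin cells of plate 20. On plate 21 it was 1.66 (0.20 to 6.00), 12.9 (6.45 to 23.1) and 52.7 (38.5 to 70.6). The intervals of the 3 ranges did not overlap on either plate. The ratio of high to low was 33.4 on plate 20 (counting interval 8.57 to 287) and 31.8 on plate 21 (8.29 to 270). In edgeR's quasi-likelihood test over 7657 genes the log2 fold was 4.92 ± 0.42 (n = 2 plates, adjusted p = 0.000259). Here and below, each value after ± is the fold divided by the square root of the test's F. It can understate the error. The standard error in DESeq2 was 0.96 for this fold and 1.06 for the high over low fold of cd34. Of all tested genes 35.8% were called in this comparison, 15.1% of them higher and 20.7% lower, so a call alone is common here. By p-value MLLT3 stood at place 150 of the 7657. The step from low to middle was 2.92 ± 0.52 (edgeR adjusted p = 0.00749, with 19.5% of genes called, 6.52% higher and 13% lower), and that from middle to high 1.99 ± 0.32 (edgeR adjusted p = 0.0338, with 2.35% called, 0.797% higher and 1.55% lower). The last call was lost with limits of 0.5% and 10% globin, at 1.57 and an edgeR adjusted p of 0.0783.

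More cells carried MLLT3 as globin rose. On plate 20 the share with at least 1 transcript was 1.43% in low, 13.9% in middle and 27.2% in high-globin cells, and on plate 21 it was 1.55%, 13% and 29.9%. With each cell thinned to 2000 transcripts, the shares in low and high cells were 0.8% and 5.13% on plate 20 and 0% (0 of 119 cells) and 8.11% on plate 21. Both depths gave the same order. On plate 20 the thinned shares rest on 1 of 125 and 4 of 78 cells, and the difference had a 95% interval of −0.43 to 11.7 points. At 500 transcripts per cell the difference was 0 on plate 20 and 0.52 points on plate 21. A neutrophil-like cluster, whose cells were all low in globin, held MLLT3 in 0 of 26 cells on plate 20 and in 1 of 23 on plate 21. These cells are part of the low range and too few to serve as a separate background. Erythroid markers other than globin moved with MLLT3: the list, with 17 of 24 names matched and all 17 detected, summed to 21498 CPM in positive and 11472 in negative cells of plate 20, and to 21753 and 11501 on plate 21. Positive cells were also deeper, with medians of 11367 against 6992 and 13081 against 8633 transcripts. All globin ranges were pooled here, and 22 of 35 and 23 of 34 positive cells were high in globin. The parts of depth and of globin range in this difference were not tested.

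The surface protein gene cd34 ran the other way. Its level was 36.3 CPM (26.3 to 48.7) in low, 3.29 (0.68 to 9.63) in middle and 1.62 (0.04 to 9.02) in high-globin cells of plate 20. On plate 21 it was 46.5 (35.1 to 60.4), 10.6 (4.84 to 20.1) and 3.52 (0.72 to 10.3). Low-globin cells lay above the others on both plates, and the middle and high ranges overlapped. High over low, edgeR gave a log2 fold of −3.94 ± 0.49 (adjusted p = 0.00118, n = 2 plates), and middle over low −2.59 ± 0.39 (adjusted p = 0.00417). Between high and middle cells the fold was −1.35 ± 0.68 and was not called (edgeR adjusted p = 0.306), on 1 against 3 transcripts on plate 20 and 3 against 9 on plate 21. The share of cells with cd34 was 14.3%, 3.80% and 1.23% from low to high on plate 20 and 16.3%, 4.35% and 3.90% on plate 21. Thinned to 2000 transcripts, low-globin cells held it in 8% and 7.56% and high-globin cells in 0 of 78 and 0 of 74.

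The few cd34-rich cells were mostly double cells with little globin. Of all low-globin cells, 98 of 140 on plate 20 and 102 of 129 on plate 21 were double. The share of these double cells with cd34 was 14.3% and 16.7%, and of low-globin single cells 14.3% and 14.8%. The cell with the most cd34, on plate 20, had 10 cd34 transcripts of 9736 and a globin share of 0.37%. The next, on plate 21, had 9 of 12829 and 0.32%. Neither had a transcript of hlfa or MLLT3. The top cell alone held 22.7% of cd34 in low-globin cells of plate 20 and 16.1% on plate 21. Without the cell of plate 20 the log2 fold, high over low, was −3.81 (edgeR adjusted p = 0.00123). Within low-globin cells, neutrophil markers were lower in cd34-positive cells, at 2306 against 12645 CPM on plate 20 and 4920 against 12113 on plate 21. The endothelial list, with 14 of 21 names matched and detected, was at 52.8 against 78.1 CPM on plate 20 and 480.4 against 152.8 on plate 21, so its direction differed between the plates.

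The transcription factor gene hlfa did not follow the others. Its level was 53.5 CPM (41.3 to 68.2) in low, 62.6 (47.4 to 81.1) in middle and 89.1 (67.1 to 116) in high-globin cells of plate 20. On plate 21 it was 63.1 (49.7 to 79.0), 54.1 (39.6 to 72.1) and 85.5 (67.1 to 107.6). High-globin cells had the highest level on both plates, and neighbouring ranges overlapped. The log2 fold, high over low, was 0.57 ± 0.22 and was not called (edgeR adjusted p = 0.0804). Without the 15 muscle- or epidermis-rich wells it was 0.65 (edgeR adjusted p = 0.0164), and without the well with most hlfa it was 0.66 (0.0428), both past the threshold. With limits of 0.5% and 10% globin it was −0.04 (0.997). Middle over low was 0.04 ± 0.22 (edgeR adjusted p = 0.921), the level being higher in middle cells on plate 20 and lower on plate 21, and high over middle 0.53 ± 0.23 (0.241).

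The share of cells with hlfa was 30% in low- and 46.9% in high-globin cells of plate 20, and 30.2% and 45.5% on plate 21. At 2000 transcripts per cell they were 16.8% and 12.8% on plate 20 and 15.1% and 17.6% on plate 21, lower in high-globin cells on the first and higher on the second. High minus low was 4.22 and 0.27 percentage points at 500 transcripts per cell and 15.3 and 8.60 at 5000, so the negative difference was seen at 2000 on plate 20 alone among the depths tried. Wells rich in epidermis transcripts held part of the low-globin hlfa. Low-globin cells with hlfa had 10989 CPM of epidermis markers on plate 20, against 2271 in those without, and 12973 against 1051 on plate 21. That list had 14 of 16 names matched, and all 14 were detected. The 8 and 5 wells with over 5% epidermis transcripts held 9 and 10 hlfa transcripts and 0 of MLLT3 and cd34, and their hlfa level was 147.0 and 166.1 CPM. In the other low-globin cells without muscle- or epidermis-rich wells hlfa was at 48.6 and 58.1 CPM.

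**Figure D2:**
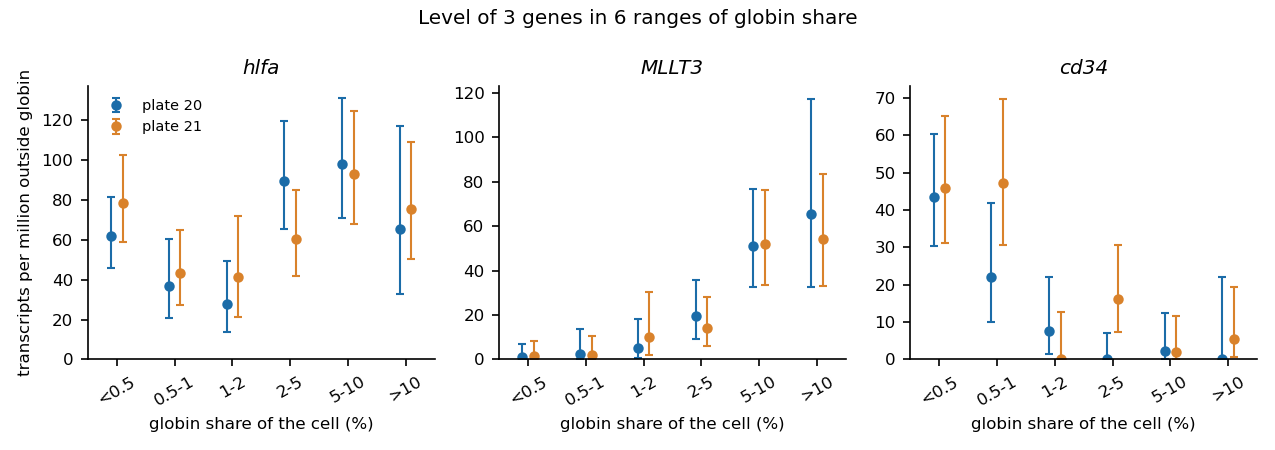
Level of the 3 genes (CPM outside globin, 95% Poisson intervals) in 6 ranges of globin share, plate 20 in blue and plate 21 in orange. MLLT3 reaches its high level at 5 to 10% globin, cd34 is high under 1%, and hlfa stands at 27.7 and 41.3 at 1 to 2% globin. The 27.7 of plate 20 includes the deepest well.

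Finer ranges of globin share, added after the data were seen, showed where each gene turned. MLLT3 was at 1.24 and 1.48 CPM under 0.5% globin, at 5.03 and 10.3 at 1 to 2%, at 19.5 and 14.3 at 2 to 5% and at 51.2 and 51.8 at 5 to 10%. Above 10% it was 65.5 and 54.0, within the interval of the range before. The level of cd34 was 43.4 and 45.9 CPM under 0.5%, 22 and 47.2 at 0.5 to 1% and 7.55 and 0 at 1 to 2%. On plate 21 it was 16.1 at 2 to 5%, where 5 of the 9 transcripts came from 1 double cell. For hlfa the lowest levels lay between, at 27.7 and 41.3 CPM at 1 to 2%, beside 36.7 and 43.4 at 0.5 to 1%. Under 0.5% hlfa was at 62.1 and 78.5, so part of the drop lay within the low-globin cells. At 5 to 10% hlfa was at 97.9 and 93.2. Its intervals at 1 to 2% and 5 to 10% did not overlap on plate 20 and did on plate 21. On plate 20, 1 cell, the deepest and a muscle-rich well, held 45.5% of the hlfa at 1 to 2%. That well had hlfa at 20.3 CPM, below the 27.7 of the range, so it lowered the level. The range was not read without it, so whether its interval stays apart from that at 5 to 10% was not tested. No test was made on these ranges.

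The comparison was repeated without the neutrophil-like, macrophage-like and epidermis-like clusters, with all other cells kept. In this set 94 and 95 low-globin cells remained. In them MLLT3 was at 2.16 and 1.06 CPM, cd34 at 46.5 and 58.4 and hlfa at 52.9 and 65.8 on plates 20 and 21. The log2 folds, high over low, were 4.96 for MLLT3 (edgeR adjusted p = 0.000796), −4.27 for cd34 (0.00133) and 0.56 for hlfa (0.135).

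**Figure D3:**
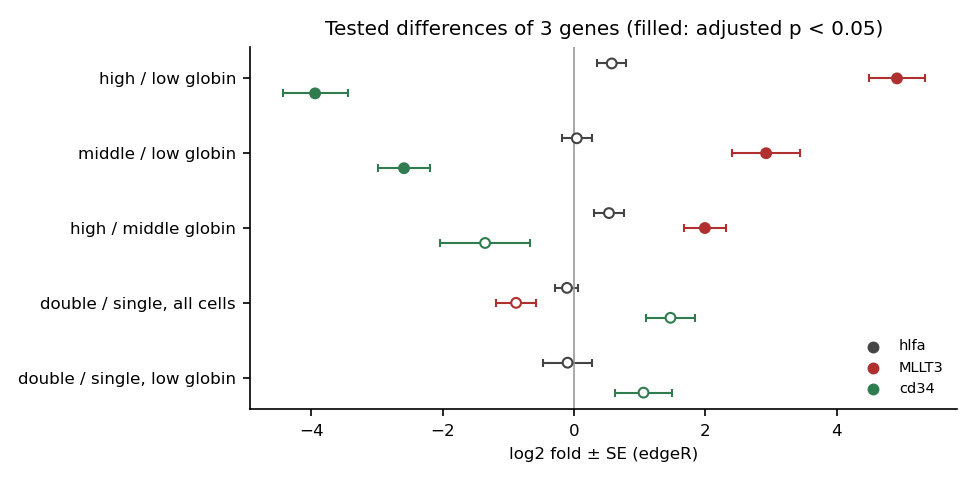
Log2 folds from edgeR for hlfa (grey), MLLT3 (red) and cd34 (green) in 5 comparisons, each over 2 plates. Bars, labelled SE on the axis, are the fold divided by the square root of the test's F. Filled points passed an edgeR adjusted p of 0.05. MLLT3 is missing from the last comparison because of its low counts; the filled points are 3 of MLLT3 and 2 of cd34, all between globin ranges.

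The sort classes were compared next, since the study sorted double and single cells into the same plates. None of the 3 genes passed the test between them. In double cells MLLT3 had 24 and 32 transcripts on plates 20 and 21 and a level of 13.1 and 15.2 CPM of all transcripts, and in single cells 24 and 26, a level of 23.8 and 27.8. It was lower in double cells on both plates, with a log2 fold of −0.88 ± 0.30 (edgeR adjusted p = 0.543). For cd34 double cells had 38 and 61 transcripts, a level of 20.8 and 29.0 CPM, and single cells 10 and 7, a level of 9.91 and 7.47. Double cells had the higher level on each plate, at 1.47 ± 0.37 (edgeR adjusted p = 0.42), and with no filter on low counts the call passed, at 1.51 (0.013). With the plate 21 layout read down columns it was 0.66 (0.969). The level of hlfa was 60.2 and 63.8 CPM in double and 66.4 and 65.1 CPM in single cells, at −0.11 ± 0.17 (edgeR adjusted p = 0.921). Of 8488 genes edgeR called 0%, 724 had an unadjusted p under 0.05, and DESeq2 called 28.

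Single cells held more globin-rich cells, with 40 of 111 against 41 of 189 double cells on plate 20 and 41 of 89 against 36 of 186 on plate 21. Within high-globin cells the MLLT3 ratio of double to single was 0.95 (counting interval 0.46 to 1.99) on plate 20 and 0.70 (0.37 to 1.32) on plate 21. Within middle-globin cells it was 0.22 (0.05 to 0.83) on plate 20, from 4 and 8 transcripts, and 4.10 (0.58 to 178) on plate 21, from 10 and 1, so the plates went opposite ways. Over all cells it was 0.55 on each plate. Within low-globin cells cd34 was at 43.2 and 53.4 CPM in double and 22.3 and 20.04 in single cells. The log2 fold there was 1.06 ± 0.43 and was not called (edgeR adjusted p = 0.576, with 0.32% of 5937 genes called, 0.0168% higher and 0.303% lower), and it was 0.44 with the plate 21 layout read down columns (0.997). Epidermis markers stood at 2060 CPM in these double cells and 14762 in the single cells on plate 20, and at 4312 and 11545 on plate 21, and their part in the difference was not tested. MLLT3 had 3 transcripts in double and 1 in single low-globin cells over both plates and was removed by the filter.

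**Figure D4:**
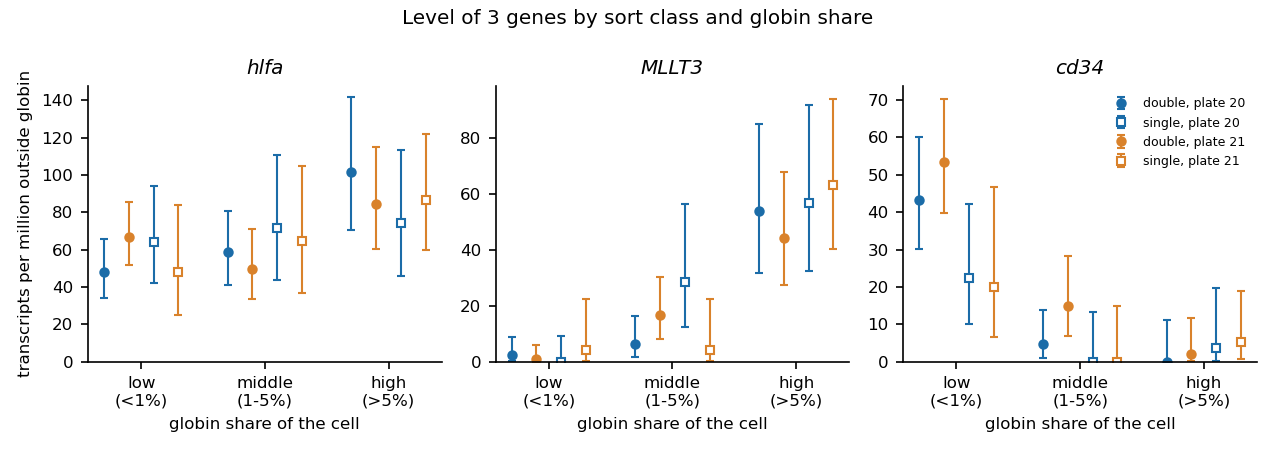
Level of the 3 genes (CPM outside globin, 95% Poisson intervals) in double (filled circles) and single (open squares) cells of plate 20 (blue) and plate 21 (orange), by globin range. In low-globin cells the cd34 level is above that of single cells in the double cells of each plate, with overlapping intervals, and in high-globin cells MLLT3 lies between 44.4 and 63.1 in every group.

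For hlfa the classes crossed. On plate 20 double low-globin cells had hlfa at 48.1 CPM and single ones at 64.3. On plate 21 the order was reversed, at 67.0 and 48.1. The fold was −0.10 ± 0.37 (edgeR adjusted p = 0.992). From low to high globin, double cells went from 48.1 to 101.5 CPM on plate 20 and from 67.0 to 84.5 on plate 21. Single cells went from 64.3 to 74.3 and from 48.1 to 86.8. The direction was the same in each of the 4 pairs, with overlapping counting intervals in all but the double cells of plate 20.

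Next the genes were read together in the same cells. Of the MLLT3-positive cells 62.9% on plate 20 (22 of 35) and 52.9% on plate 21 (18 of 34) also had hlfa, against 33.6% and 34.4% of MLLT3-negative cells. Both are detected more readily in deep cells, and MLLT3-positive cells were deeper, as given above. Thinned to 2000 transcripts, 2 of 7 MLLT3-positive cells of plate 20 had hlfa (28.6%, against 14.2% of the others), and 1 of 9 on plate 21 (11.1%, against 14.7%). Of the cd34-positive cells 8 of 24 and 5 of 27 had hlfa (33.3% and 18.5%), against 37.3% and 38.7% of cd34-negative cells. MLLT3 and cd34 shared 1 cell on plate 20 and 2 on plate 21. These were 4.17% and 7.41% of cd34-positive cells, and 12.3% and 12.9% of cd34-negative cells had MLLT3. All globin ranges were pooled, and 20 of 24 and 21 of 27 cd34-positive cells were low in globin. Within low-globin cells MLLT3 was in 1 of 20 cd34-positive cells on plate 20 (5%, against 0.83% of the others). On plate 21 it was in 0 of 21, against 1.85%. There hlfa was in 30% and 14.3% of cd34-positive cells, against 30% and 33.3% of the others. Thinned to 2000 transcripts with all ranges pooled, 0 of 12 and 0 of 9 cd34-positive cells had hlfa, against 15.3% and 15.1%. The part of globin range was not tested. All 3 genes were seen together in 0 cells of plate 20 and 1 cell of plate 21, and 53.7% and 49.8% of cells had none of them.

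Clustering of the cells without these genes gave 8 clusters. The highest cd34 lay in a cluster of 102 cells, 51 from each plate, led by NAB1 and rgs13a, for which no cell type could be named. There cd34 was at 85.7 CPM (54.3 to 128.6) on plate 20 and 102.9 (68.9 to 147.7) on plate 21, from 23 and 29 transcripts, 47.9% and 42.7% of all cd34 on the plates. Those transcripts came from 8 and 10 of its cells. Of all 102 cells of the cluster 83.3% were low in globin and none high. MLLT3 had 1 transcript there on plate 20 and 0 on plate 21. A neutrophil-like cluster of 49 cells, with npsn, lyz and mmp13a among its leading genes, had hlfa at 12.9 CPM (1.56 to 46.7) and 5.86 (0.15 to 32.7), from 2 and 1 transcripts. There cd34 had 1 transcript on each plate. The epidermis-like cluster, 13 cells with krt5 as its first leading gene, had hlfa at 145.7 and 159.2 CPM from 8 and 10 transcripts.

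**Figure D5:**
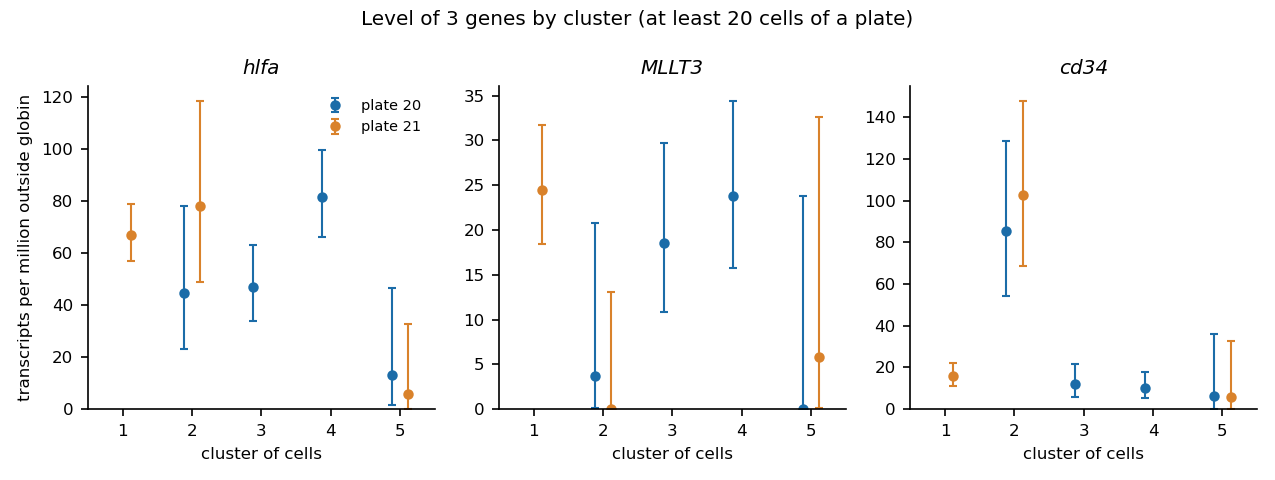
Level of the 3 genes (CPM outside globin, 95% Poisson intervals) in clusters 1 to 5, shown where a plate had at least 20 cells, plate 20 in blue and plate 21 in orange. Cluster 2, led by NAB1, is highest for cd34 on both plates, and cluster 5, neutrophil-like, is lowest for hlfa.

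The 3 largest other clusters were mostly of 1 plate and may mark the plate rather than a cell type. Cluster 1, led by globin and other genes, had 175 of 187 cells from plate 21, which had 275 cells in all. It held 94.8% of that plate's MLLT3, 77.4% of its hlfa and 52.9% of its cd34. The level of hlfa was 67.0 CPM in these 175 cells and 67.0 over all cells of plate 21, so it was not raised there. MLLT3 was at 24.41 against 19.94 CPM over the plate, and cd34 was lower, at 15.98 against 23.38. On plate 20 cluster 4 had 86 cells with hlfa at 81.5 CPM (66.0 to 99.5) and MLLT3 at 23.8 (15.8 to 34.4). Cluster 3, with muscle genes among its leading genes, had 95 cells of that plate with hlfa at 46.9 (33.9 to 63.1) and MLLT3 at 18.5 (10.8 to 29.7). The hlfa intervals of the pair did not overlap.

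The genes most like each were ranked by the lower of the correlations on the 2 plates, over 300 and 275 cells and 5740 genes, after regression on depth. These are descriptions over cells that share a plate and its depth, and all values are low. MLLT3 was nearest to globin genes: hbae3 at 0.28 on plate 20 and 0.30 on plate 21, then hbae1.1, hbae1.2, HBE1 (ENSDARG00000045143) and hbae1.3. Globin genes set the globin share, so their nearness repeats the rise of MLLT3 with globin and is no separate result. Near-identical globin copies can share reads, so these are not separate observations. In low-globin cells 0 of these 5 remained among the nearest, where only 4 MLLT3 transcripts were counted. Nearest to cd34 were PPM1G at 0.30 and 0.26, a phosphatase gene, STMN1 at 0.26 and 0.25, a microtubule regulator gene of dividing cells, the unnamed gene ENSDARG00000035773, the chemokine receptor gene CXCR4 (ENSDARG00000041959) and PFDN5. In low-globin cells alone 2 of these, PPM1G and STMN1, stayed among the nearest 5, and CXCR4 did not. Nearest to hlfa were ppp1r15a at 0.21 and 0.29, a gene of the stress response, FOSB, an immediate-early gene, ctsla, ABAT and CAPNS1. Without the regression on depth only ppp1r15a stayed among the 5 for hlfa, and in low-globin cells alone 2 stayed, ppp1r15a and FOSB. Among the 3 genes themselves, the correlation of hlfa with MLLT3 was 0.04 and 0.01, of hlfa with cd34 −0.10 and −0.14, and of MLLT3 with cd34 −0.07 and −0.08.

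Relatives of each gene were read in the same high over low comparison. Of 18 other tested PAR bZIP and clock genes 3 rose and 3 fell, with a median log2 fold of 0.30 against −0.02 over all tested genes. Those that fell were the NFIL3 genes, bZIP repressors that bind the same sites as PAR factors: nfil3-6 at −3.45 ± 0.44 (edgeR adjusted p = 0.00129), nfil3-5 at −2.84 ± 0.42 and NFIL3 at −2.44 ± 0.61. In low- and high-globin cells nfil3-6 was at 62.6 and 4.86 CPM on plate 20, and on plate 21 at 59.0 and 5.86. The clock repressor genes NR1D2 at 0.72 ± 0.19, CRY1 at 0.62 ± 0.19 and nr1d2a at 0.63 ± 0.21 rose (edgeR adjusted p = 0.0225, 0.040 and 0.0476). Counts of 3 and 3 of 18 lie near the 35.8% called over all genes.

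Of 18 other tested genes of MLLT3 partner complexes 6 rose and 3 fell, with a median log2 fold of 0.28. Over all tested genes 15.1% were called higher and 20.7% lower, and the median was −0.02. The elongation factor gene ELL2, of the super elongation complex, rose by 1.56 ± 0.27 (edgeR adjusted p = 0.00452), with 41.2 and 145.8 CPM in low- and high-globin cells of plate 20 and 50.6 and 128.9 on plate 21. Its partner gene EAF2 rose by 1.103 ± 0.25, the histone methyltransferase gene kmt2ba by 1.05 ± 0.22 and psip1b by 0.74 ± 0.18. MLLT10, a cofactor of the histone methyltransferase DOT1L, fell with a log2 fold of −1.03 ± 0.19 (edgeR adjusted p = 0.00583). The CD34 list held 7 names: cd34, podxl, podxl2, crk, crkl, selp and sele. Of its genes other than cd34, 2 were tested and neither was called. The family gene podxl was not tested, with 3 transcripts on plate 20 and 4 on plate 21.

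Of 18 other tested stem cell factor genes 4 rose and 12 fell, with a median log2 fold of −1.69, against 15.1% higher and 20.7% lower over all tested genes. Leukocyte genes had the same direction in this comparison: SPI1, a myeloid transcription factor gene, was at 113.7 and 4.86 CPM in low- and high-globin cells of plate 20, and at 113.8 and 2.34 on plate 21. The neutrophil list was lower in high-globin cells too, as given above, and the part of these cells in the list's folds was not tested. The pan-leukocyte gene ptprc was at −4.62 ± 0.33 (edgeR adjusted p = 0.000113), thy1 at −5.23 ± 0.51, the homing receptor gene CXCR4 at −2.74 ± 0.19 and the receptor gene KIT at −2.54 ± 0.34. The level of ptprc was 141.7 and 6.48 CPM in low- and high-globin cells of plate 20 and 133.8 and 4.69 on plate 21. Other genes of the list were higher in high-globin cells. From low to high, TAL1 went from 368.0 to 586.7 CPM on plate 20 and from 364.3 to 591.5 on plate 21. LMO2 went from 174.8 to 273.8 and from 177.8 to 286.1, and GFI1B from 14.8 to 40.5 and from 13.3 to 37.5. As a reference, MYB fell with a log2 fold of −0.62 ± 0.15 (edgeR adjusted p = 0.0156), from 400.0 to 231.7 CPM on plate 20 and from 364.9 to 268.6 on plate 21. Between sort classes 0 genes of these lists were called by edgeR, in all cells and in low-globin cells.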

How the data were processed

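The authors deposited 1 table of expected counts per plate, with genes in rows, wells in columns and no scaling. Reads were aligned with BWA to Zv9, per the submitters' processing notes; which counter and filters followed is not stated there. All values above 0 matched whole identifier counts n of 4096, corrected for repeated draws, within 0.01 (100%), and are called transcripts. Sort classes were read from the deposited layouts. The 21 undefined wells, spike-ins and the barcode list entered no comparison. Both plates use the same set of well barcodes, and cells were kept apart by plate. Doublets were not called, and whether any sorted well held a doublet was not tested.

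Cells of at least 500 transcripts were summed per plate and group and rounded, and compared in R 4.3.3 by the two-sided quasi-likelihood test of edgeR 4.0.16 after TMM scaling and filterByExpr, with the plate as a block and Benjamini-Hochberg adjustment across all genes. Globin genes were left out of totals and tests where globin share formed the groups. Whether the 2 plates hold separate animals is not in the labels. With the plate as a block, p-values rest on how far the group differences varied between these plates, possibly for technical reasons. The residual degrees of freedom were 2 for the globin ranges and 1 for each comparison of sort classes. Depth per sum ran from 249506 to 2100731 transcripts, and 3 transcripts were taken as the floor of detection. Levels carry exact 95% Poisson intervals. Clusters used scanpy 1.11.5 (Leiden resolution 0.8, members left out). The tests were also run on simulated data.

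The genes, lists, globin limits and tests were chosen with earlier results of these data known. Named genes are the 3 followed, the 5 most like each, MYB, and up to 6 of each list with an adjusted p under 0.05 in high over low globin, in order of p. Other names (podxl, HLF, TAL1, LMO2, GFI1B, leading genes of clusters) were chosen after their values were seen. Of 19955 identifiers 78.9% had a name. Coordinates and sequences are not given, as a genome of that build was not used here. Alternatives were DESeq2 1.42.0, its size factors, no filter, no plate block, cell minimums of 250 and 1000, thinning, other globin limits, left-out plates and wells, and the plate 21 layout read down columns; left-out top wells per gene, finer globin ranges and left-out clusters were added after the data were seen.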

Additional observations from a re-analysis of the deposited data

Results flagged for a closer look

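Transcripts of the followed genes also lay in wells outside every comparison. The 21 undefined wells held 10 transcripts of hlfa in 7 wells, a level of 78.8 CPM (95% Poisson interval 37.8 to 144.9), above the limit that a count of 0 allows. They held 4 transcripts of cd34, all in 1 well. The wells under 500 transcripts held 4 transcripts of hlfa, each in a different well of 172.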

How the results depend on the processing

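The folds of MLLT3 and cd34, high over low and middle over low globin, kept their direction under every alternative that gave them a value, and their call under each of these that had a test. With each cell thinned to 500 transcripts the 3 genes were removed by the filter. High over low, hlfa was −0.045 with limits of 0.5% and 10% globin, 0.66 without its top well and 0.65 without the 15 wells. Middle over low, hlfa was −0.23 with those limits, −0.021 with globin kept, −0.025 with DESeq2 size factors, −0.026 in DESeq2, −0.0057 without the largest well, and −0.41 to 0.39 with 1 plate left out. In the other comparisons with 1 plate left out, cd34 was −3.24 to −2.31 (middle over low) and 1.11 to 1.85 (double over single), and hlfa 0.37 to 0.82 (high over middle) and −0.45 to 0.30 (double over single, low globin). In that last comparison hlfa was 0.037 with no filter, 0.24 without the 15 wells and 0.044 without the named clusters. MLLT3, high over middle, was 1.57 with the other limits, and cd34, double over single, 1.51 with no filter and 0.66 with the layout of plate 21 read down columns (0.44 in low-globin cells). With 1 plate left out no residual degrees of freedom remained, so those values have no test. The replicate block, here the plate, was in the main test: both groups were on each plate. With no replicate block 0 genes were called between classes in low-globin cells, against 19, and no call of the 3 genes changed.

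Counts of called genes moved with the settings. High over low they were 2740, 1427 in DESeq2 and 174 thinned to 500. Middle over low they were 1492, then 783, 106 and 404 without the named clusters. High over middle they were 180, then 15 thinned, 788 with no filter, 593 without the largest well and 924 without the 15 wells. Between classes they were 0, then 9 thinned, 28 in DESeq2, 371 with no filter, 3 with the layout of plate 21 read down columns and 86 without the 15 wells. In low-globin cells they were 19, then 0 thinned, 0 with that layout, 33 and 56 at cell minimums of 1000 and 250, 66 with globin kept, 53 with the other limits, 36 in DESeq2, 276 with no filter, 0 without the well with most cd34 and 31 without that with most hlfa. The cause was not tested, except that thinning leaves fewer genes to test.

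Shares of cells depended on depth. High minus low, at 2000 transcripts per cell, hlfa was −3.98 and 2.44 points on plates 20 and 21, 16.9 and 15.2 unthinned, 15.3 and 8.60 at 5000, and 4.22 and 0.27 at 500. MLLT3 was 4.33 and 8.11, then 25.7 and 28.3 unthinned, 21.4 and 15.9 at 5000, and 0 and 0.52 at 500. The difference for cd34 was −8 and −7.56, then −13.1 and −12.4 unthinned, −9.88 and −10.6 at 5000, and −2.14 and −0.25 at 500.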
